A study of Mus musculus with 12 samples.

Results

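Transcripts of 45 genes that repair DNA double-strand breaks and interstrand crosslinks were followed in mouse blood progenitor cells that carried 4 genotype labels. The genes were chosen by name, for their known roles in homologous recombination, end joining, the Fanconi anemia pathway and the checkpoint that breaks activate. All 45 were among the 55450 rows of the deposited count table, and all 45 were among the 14346 genes with enough counts to be tested. The cells were donor-derived, were negative for lineage markers (Lin-) and positive for the receptor Kit, and came from the marrow of mice that had received a competitive transplant. The labels were WT, Tet2KO (loss of the DNA dioxygenase Tet2), Id1KO (loss of Id1, an inhibitor of transcription factor binding) and dKO (both losses), with 3 libraries each. Every group therefore consists of transplanted cells from recipient mice, WT included. The strain, age and sex of the mice, the alleles, the competitor cells, the marker that set donor cells apart and the time after transplantation are not given in the sources used here. Within a genotype the library titles carry the same sample number, from 5 for WT to 8 for dKO, so 3 libraries could be repeated preparations of 1 sample of cells, and the p-values measure only the spread between these libraries. The study's title names genomic instability in mice with Tet2 loss and Id1 ablation, and repair genes bear on that question.

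Estimated counts summed to between 15706407 and 19959183 per library. Gene totals of Tet2 and Id1 did not fall where the labels say the gene was lost, so the genotype names that follow are labels. Tet2 stood at 99.3 ± 2.2 CPM (read counts scaled for library size with TMM factors; SD, n = 3) in libraries labelled WT and at 130 ± 2.5 in Tet2KO and 118 ± 3.1 in dKO, and at 92 ± 1.5 in Id1KO. Id1 stood at 1.47 ± 0.27 CPM in WT and at 3.96 ± 0.34 in Id1KO and 3.93 ± 0.5 in dKO, and at 3.86 ± 0.42 in Tet2KO, where the label leaves Id1 intact. The counts are gene totals, and the loss of a part of a gene would not show in them. Kit (314 to 377 CPM) and Cd34 (279 to 370 CPM) were high in all 12 libraries, while Cd3e, Ly6g, Cd8a and Ms4a1 had at most 3 counts in any library. Xist, transcribed from the inactive X chromosome, had mean levels of 262 CPM (WT), 10.8 (Tet2KO), 64.9 (Id1KO) and 16.7 (dKO) over 3 libraries each. The Y-linked genes Ddx3y, Kdm5d and Uty were detected in every library and were lower in WT (Ddx3y 48.9 CPM) than under each other label (82.1 to 93.4 CPM). Transcripts of both sex chromosomes thus moved with every contrast that includes WT. Some also differed in contrasts without WT, as Xist did between Id1KO and dKO. The Y-linked gene Eif2s3y was at 43.1 CPM in Tet2KO and 61.7 in dKO, while Ddx3y, Kdm5d and Uty did not rise there. The part of these transcripts in the results was not tested. In bulk libraries fewer cells of a type and less RNA per cell cannot be told apart.

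A double-strand break can be rejoined directly by non-homologous end joining, in which the Ku heterodimer binds the ends and recruits a kinase and a ligase. In S and G2 phase the ends can instead be resected to single strands, and with the help of BRCA1, PALB2 and BRCA2 the break is repaired by copying from the sister chromatid. Crosslinks are unhooked through the Fanconi pathway, whose core complex attaches ubiquitin to the FANCD2 and FANCI pair. Blood stem and progenitor cells depend on these routes, as inherited loss of Fanconi genes leads to marrow failure, and many of the genes are transcribed mostly in cycling cells.

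Levels between genes were compared as CPM per kilobase of merged exon. Merged exon covers every annotated exon of a gene, from 1384 bp for H2afx to 23629 bp for Atr. The order of genes therefore depends on the annotation too. H2afx, which encodes the histone variant that is phosphorylated around breaks, had the highest level at 209 CPM per kb, averaged over the 12 libraries. Topbp1, an activator of the kinase ATR, followed at 34.3, and Rad50, the structural subunit of the resection complex MRN, at 24.3. Lig4, the ligase of end joining, was lowest at 0.678, with 48 to 80 counts per library. Rad51c, a gene of homologous recombination, had 0.965 CPM per kb and Xrcc4, the partner of the ligase, 1.56. The other 39 genes lay between 2.96 (Rad52) and 19.9 (Rif1). Levels within a functional group thus differed widely, while the 4 genotype means of each gene lay close together in the plot of levels per length.

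**Figure D1:**
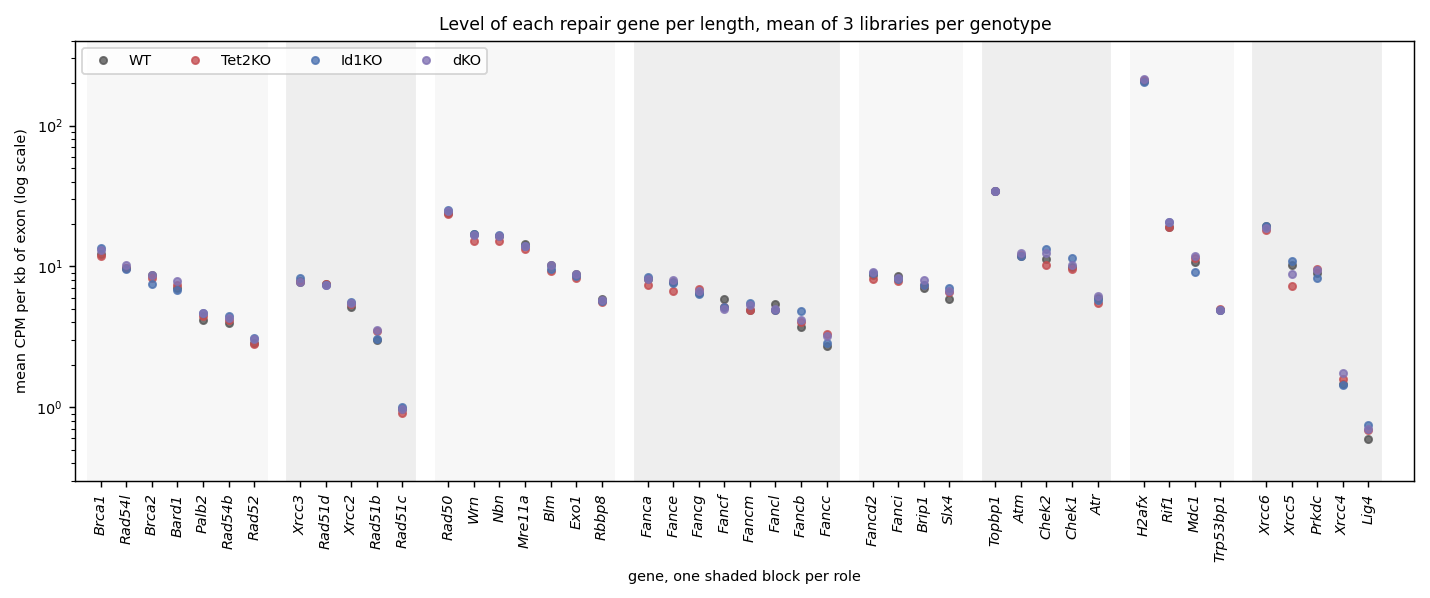
Mean level of each of the 45 repair genes in the 4 genotype labels, in CPM per kb of merged exon on a log axis, with genes grouped by role in shaded blocks. H2afx, at 209 CPM per kb averaged over all libraries, and Lig4, at 0.678, mark the ends of the range, and for most genes the 4 points overlap.

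Changes of these genes between labels were small. The 6 contrasts tested were the 5 pairwise comparisons named below and the interaction, which is the change from Tet2KO to dKO less the change from WT to Id1KO. A gene was called at an edgeR adjusted p under 0.05, adjusted over all 14346 genes. In Tet2KO versus WT 13 of the 45 genes were called, 4 higher and 9 lower, beside 32.8% of all genes tested (16.6% higher and 16.2% lower). That is 28.9% of the 45 genes, a share near the background. Their median log2 fold change was -0.02, against 0 over all genes. Without WT replicate 2 the count was 7. In dKO versus Tet2KO 12 genes were called, all 12 higher, where 26.4% of all genes were called, 13.1% higher and 13.3% lower. Their share of 26.7% lay near the background for either direction and above the 13.1% for the higher direction, with a median of 0.06, beside 0 over all genes. The 2 contrasts share the Tet2KO libraries, so a chance deviation there moves both in opposite directions.

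The remaining contrasts gave 7 to 10 calls each. In Id1KO versus WT 10 genes were called, 7 higher and 3 lower, beside 15% of all genes, 7.27% higher and 7.77% lower. In dKO versus WT 9 were called, 8 higher and 1 lower, beside 19.2% of all genes, 10.2% higher and 8.97% lower. Leaving out WT replicate 3 or dKO replicate 2 lowered that count to 5. In dKO versus Id1KO 7 were called, 5 higher and 2 lower, beside 19.3% of all genes, 10.6% higher and 8.7% lower. For the interaction 7 were called, 5 positive and 2 negative, beside 14.5% of all genes, 7.46% positive and 7.03% negative. Over the 5 pairwise contrasts 21 of the 45 genes were called in none, and Xrcc5 was called most often, in 4. That count was not made over all genes, so whether 21 of 45 is many or few cannot be said. No pairwise log2 fold change among the 45 genes exceeded 0.39 upward or 0.49 downward, and under a test against a 1.2-fold change Xrcc5 in Tet2KO versus WT was the sole call. When the libraries of a genotype were summed to 1 and additive label effects fitted, no gene of the 45 passed. The smallest adjusted p was then 0.0906 (Xrcc5, Tet2 label), and 4 genes for each label had an unadjusted p under 0.05. Of all 14346 genes, 15.6% (Tet2 label) and 9.96% (Id1 label) had an unadjusted p under 0.05 in that fit. It called 242 of all genes for the Tet2 label and 7 for the Id1 label.

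Cell cycle and lineage transcripts moved with the same labels, and their part in the results for the repair genes was not tested. Of 44 S phase genes, which encode the replication machinery, 17 were lower and 1 higher in Tet2KO than in WT, and 17 were higher and 1 lower in dKO than in Tet2KO. Their summed level was 7540 to 7680 CPM in WT, 7230 to 7300 in Tet2KO, 7420 to 7500 in Id1KO and 7600 to 7710 in dKO. Of 34 genes of G2 and M phase, 19 were higher in Id1KO than in WT, 25 in dKO than in Tet2KO and 26 in dKO than in WT, and none was lower in these contrasts. Of 24 erythroid genes, 22 were lower in Tet2KO than in WT, with a summed level of 2350 to 2410 CPM in WT and 1450 to 1460 in Tet2KO. In dKO the erythroid sum was 2360 to 2380 CPM and in Id1KO 2550 to 2570. Other lineage lists moved as well. Of 16 monocyte and dendritic genes tested, 10 were higher and 3 lower in Tet2KO than in WT, and 2 were higher and 9 lower in dKO than in Tet2KO. Of 14 neutrophil genes, 7 were higher and 3 lower in Tet2KO than in WT, with sums of 14500 to 14600 CPM in WT, 16000 to 16200 in Tet2KO, 12300 to 13200 in Id1KO and 12100 to 13200 in dKO. Of 13 stem and multipotent genes, 7 were higher in Tet2KO than in WT and 7 lower in dKO than in Tet2KO, with none in the other direction. Megakaryocyte genes summed to 206 to 213 CPM in WT and 282 to 294 in Id1KO, and mast, basophil and eosinophil genes to 578 to 590 CPM in WT and 465 to 477 in dKO. The summed level of the 45 repair genes was 3160 to 3180 CPM in WT, 3110 to 3140 in Tet2KO, 3160 to 3230 in Id1KO and 3210 to 3330 in dKO.

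**Figure D2:**
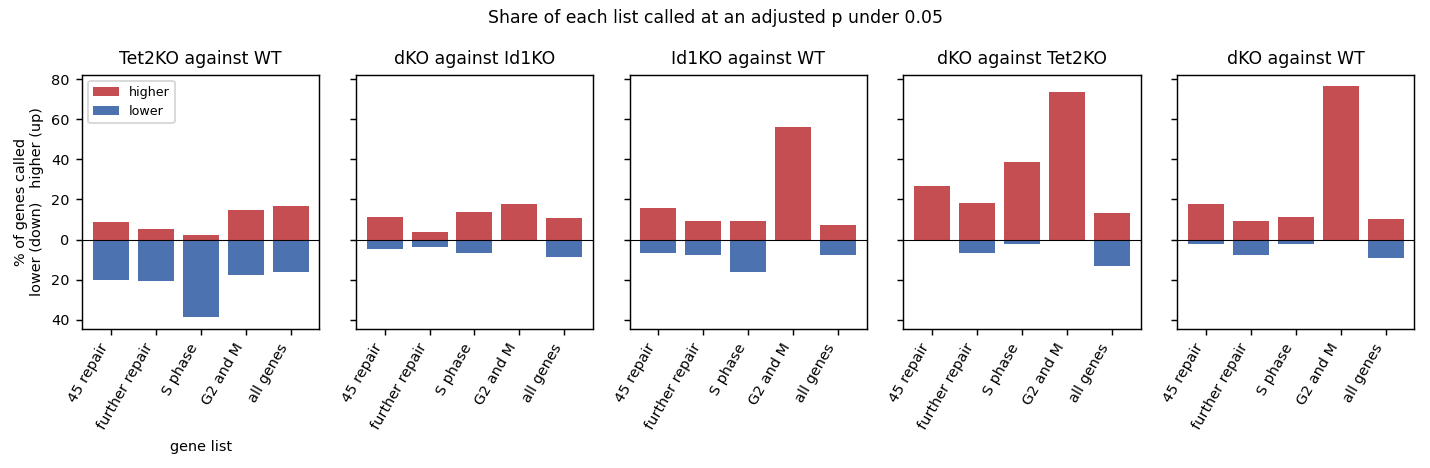
Share of genes called higher (red, upward) or lower (blue, downward) at an edgeR adjusted p under 0.05, in percent, for the 45 repair genes, 77 further repair genes, 44 S phase genes, 34 G2 and M phase genes and all 14346 genes tested, in 5 pairwise contrasts. The 45 repair genes have no lower call in dKO versus Tet2KO, and the G2 and M phase list has the tallest bars in the 3 contrasts at the right.

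Among end joining genes, Xrcc5 had the largest decrease of the whole set. Xrcc5 (ENSMUSG00000026187.8, chromosome 1, 72307421 to 72394952) encodes the larger Ku subunit, which caps DNA ends together with the product of Xrcc6. Its level per library was 24.8, 26.3 and 27.3 CPM (WT), 19.5, 16.9 and 19.3 (Tet2KO), 28.6, 26 and 30 (Id1KO) and 23.8, 21.1 and 22.6 (dKO). All Tet2KO libraries lay below all others, and the dKO libraries lay between Tet2KO and WT without overlap with either. The Tet2KO versus WT change was -0.49 ± 0.07 (log2 ± SE; adjusted p 2.07e-05), and that of dKO versus Id1KO was -0.32 ± 0.068 (0.00189). Other calls were weaker, -0.22 for dKO versus WT (adjusted p 0.0307) and 0.27 for dKO versus Tet2KO (0.009). The -0.22 was lost when WT replicate 2 or 3 or dKO replicate 2 or 3 was omitted, with an adjusted p of up to 0.137 (dKO replicate 2), and by DESeq2. The 0.27 was lost without Tet2KO replicate 2 (0.0631). Omitting any 1 library kept the calls of Tet2KO versus WT and dKO versus Id1KO.

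The partner gene Xrcc6 (chromosome 15, 81987835 to 82040085) was called in no contrast. Its levels were 81.6, 90.7 and 86.1 CPM in WT and 81.3, 83 and 80.2 in Tet2KO, which overlap, with a log2 fold change of -0.08 and a 95% confidence interval of -0.16 to 0. The ratio of Xrcc5 to Xrcc6 per kb of exon, chosen after the values were seen, was 0.509 to 0.555 in WT, 0.356 to 0.422 in Tet2KO, 0.526 to 0.614 in Id1KO and 0.448 to 0.514 in dKO. Exons of Xrcc6 overlap those of Desi1 on the opposite strand over 344 bp, and whether counting used strand is not given in the sources used here.

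Prkdc (chromosome 16, 15637866 to 15842235), which encodes the catalytic subunit of DNA-PK that Ku recruits, was higher in Tet2KO than in WT and lower in Id1KO. The 12 libraries gave 118, 117 and 121 CPM (WT), 129, 126 and 125 (Tet2KO), 108, 109 and 110 (Id1KO) and 126, 128 and 120 (dKO). The Id1KO libraries were the lowest of the 12. Prkdc rose by 0.09 ± 0.03 in Tet2KO versus WT (adjusted p 0.0222) and by 0.19 ± 0.031 in dKO versus Id1KO (0.000135), and had a log2 fold change of -0.12 in Id1KO versus WT (0.0105). The small rise in Tet2KO was lost without WT replicate 2 or Tet2KO replicate 1 and under DESeq2, up to an adjusted p of 0.0702 without the filter on low counts. The decrease in Id1KO was lost without WT replicate 3 (0.0643) or Id1KO replicate 1. Lig4 and Xrcc4, the ligase and its partner, had at most 131 counts in a library and passed in no contrast.

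**Figure D3:**
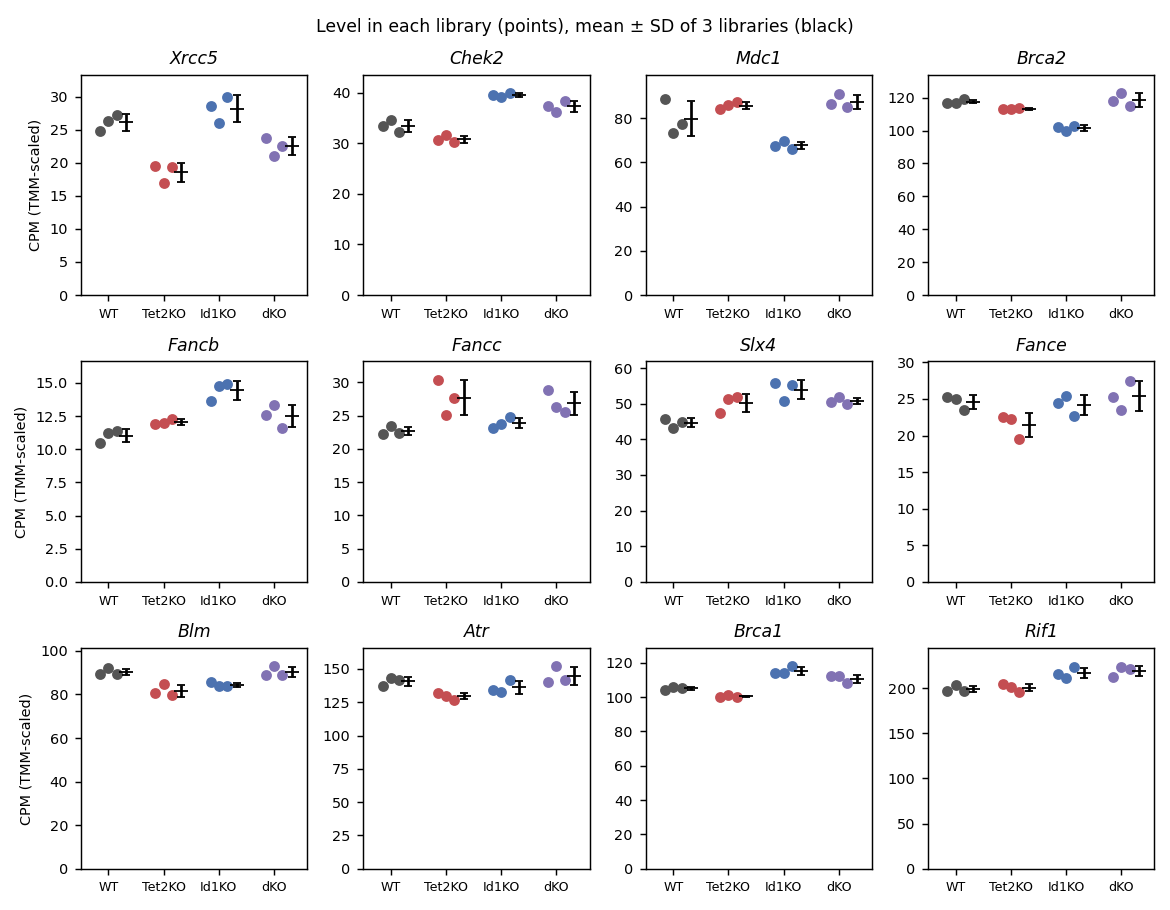
Levels of 12 repair genes in CPM after TMM scaling, from 0, with 1 point per library in each genotype label and the mean ± SD of 3 libraries in black. Xrcc5 is lowest in the 3 Tet2KO libraries, Brca2 and Mdc1 are lowest in the 3 Id1KO libraries, and Chek2 is higher in Id1KO and dKO than in WT and Tet2KO.

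Of the 7 mediators of homologous recombination, Brca1 and Brca2 were both called in Id1KO versus WT, in opposite directions. Brca1 (ENSMUSG00000017146.12, chromosome 11, 101488764 to 101551955) encodes a ubiquitin ligase subunit that promotes resection and recruits PALB2. Its level per library was 104, 106 and 105 CPM (WT), 100, 101 and 100 (Tet2KO), 114, 114 and 118 (Id1KO) and 112, 112 and 108 (dKO). Libraries labelled Id1KO or dKO were all above those labelled WT or Tet2KO. Brca1 rose by 0.14 ± 0.028 in Id1KO versus WT (adjusted p 0.00237) and by 0.14 ± 0.029 in dKO versus Tet2KO (0.00115). Both calls held in every alternative fit of that gene, with adjusted p up to 0.0135, other than those with a fold limit or with summed libraries.

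Brca2 (ENSMUSG00000041147.10, chromosome 5, 150522630 to 150570329) encodes a mediator of homologous recombination that PALB2 brings to breaks. The 12 libraries gave 117, 117 and 119 CPM (WT), 113, 113 and 114 (Tet2KO), 102, 99.7 and 103 (Id1KO) and 118, 123 and 115 (dKO). The Id1KO libraries were below all others. The log2 fold change was -0.21 ± 0.03 in Id1KO versus WT (adjusted p 7.58e-05) and 0.23 ± 0.031 in dKO versus Id1KO (2.25e-05). In dKO versus Tet2KO it was 0.06, with a 95% confidence interval of 0 to 0.13 and an adjusted p of 0.134. The difference between both Id1 contrasts, the interaction, was 0.28 ± 0.043 with an adjusted p of 0.000223.

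Palb2, whose product links BRCA1 to BRCA2, was at 30.8, 28.3 and 32.3 CPM in WT and at 34.1, 35.5 and 32.7 in dKO. Its rise of 0.16 ± 0.054 in dKO versus WT (adjusted p 0.0413) was lost without WT replicate 1 or 2 or dKO replicate 1 or 2, up to 0.197 without WT replicate 2, and under DESeq2, no filter, the replicate block and the libraries compared alone. Bard1, the partner of BRCA1 in its ligase, was at 37.9, 40.5 and 37.4 CPM in Id1KO and at 43.1, 50.3 and 40.1 in dKO, which overlap. Its rise of 0.2 ± 0.065 in dKO versus Id1KO (adjusted p 0.0327) became 0.1 (0.228) without dKO replicate 2. That rise was also lost without Id1KO replicate 1 or 3 and with the libraries compared alone. Rad52, Rad54l and Rad54b, which anneal strands or remodel DNA during recombination, were called in no contrast. Among Rad51b, Rad51c, Rad51d, Xrcc2 and Xrcc3, which assist recombination, Rad51b alone was called. It was at 11.3, 11.1 and 11.2 CPM in WT and at 12.2, 12.4 and 14.5 in Tet2KO, a rise of 0.22 ± 0.08 (adjusted p 0.0378) that became 0.14 (0.272) without Tet2KO replicate 3 and was also lost without any 1 of the WT libraries. DESeq2, no filter and the libraries compared alone also lost that rise. In dKO versus WT Rad51b rose by 0.23 (adjusted p 0.047), and 14 of 20 alternative fits lost that call.

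Among genes of end resection and of the helicases, calls were partial. In Tet2KO versus WT 4 of these 7 genes were lower (Blm, Wrn, Exo1 and Nbn), none was higher and 3 did not pass, where 16.2% of all genes were lower. All 7 log2 fold changes were between -0.18 and -0.01. In dKO versus Tet2KO 3 were higher and 4 did not pass, where 13.1% of all genes were higher, and all 7 values were between 0.05 and 0.15. In Id1KO versus WT the 7 values lay between -0.1 and 0.07, and in dKO versus WT between -0.03 and 0.04, with no call. Blm (chromosome 7, 80454733 to 80535119) encodes a RecQ helicase that dissolves joint molecules. It stood at 89.4, 92 and 89.5 CPM (WT), 80.7, 84.7 and 79.7 (Tet2KO), 85.6, 84 and 83.8 (Id1KO) and 89.1, 93 and 88.9 (dKO). Its levels in WT and dKO overlapped and lay above those of all Tet2KO and Id1KO libraries. Its log2 fold change was -0.15 ± 0.033 in Tet2KO versus WT (adjusted p 0.00202) and 0.15 ± 0.034 in dKO versus Tet2KO (0.00301), and the interaction was 0.24 ± 0.047 (0.00155). A further call, 0.1 in dKO versus Id1KO (adjusted p 0.0452), was lost in 16 of 20 alternative fits, up to 0.177 with DESeq2, and was -0.02 with summed libraries.

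Wrn, the gene of the Werner helicase (chromosome 8, 33234384 to 33385527), was at 128, 132 and 129 CPM in WT and at 116, 118 and 111 in Tet2KO. The groups did not overlap, and the log2 fold change was -0.18 ± 0.041 (adjusted p 0.00232). In dKO it was at 118, 135 and 128 CPM, which meets the Tet2KO range, and a rise of 0.14 ± 0.041 over Tet2KO (adjusted p 0.014) was lost without Tet2KO replicate 3, dKO replicate 2 (0.094) or dKO replicate 3. Exo1, the gene of a resection nuclease, was at 69.2, 69.8 and 68.6 CPM in Tet2KO and at 73.1 to 75.9 in WT and 74.6 to 75.1 in dKO. Its log2 fold changes of -0.11 in Tet2KO versus WT (adjusted p 0.0311) and 0.11 in dKO versus Tet2KO (0.0384) were lost in 5 and 6 of the 12 fits without 1 library, up to 0.109 and 0.113, both without Tet2KO replicate 3. DESeq2 lost both of these Exo1 calls too. Of the MRN complex, which senses ends, Nbn had a log2 fold change of -0.13 in Tet2KO versus WT (adjusted p 0.0393). Nbn lost that call under DESeq2 and in 8 of those 12 fits, up to 0.165 without Tet2KO replicate 3. Its partners Rad50 and Mre11a, and the resection factor Rbbp8, were called in no contrast.

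**Figure D4:**
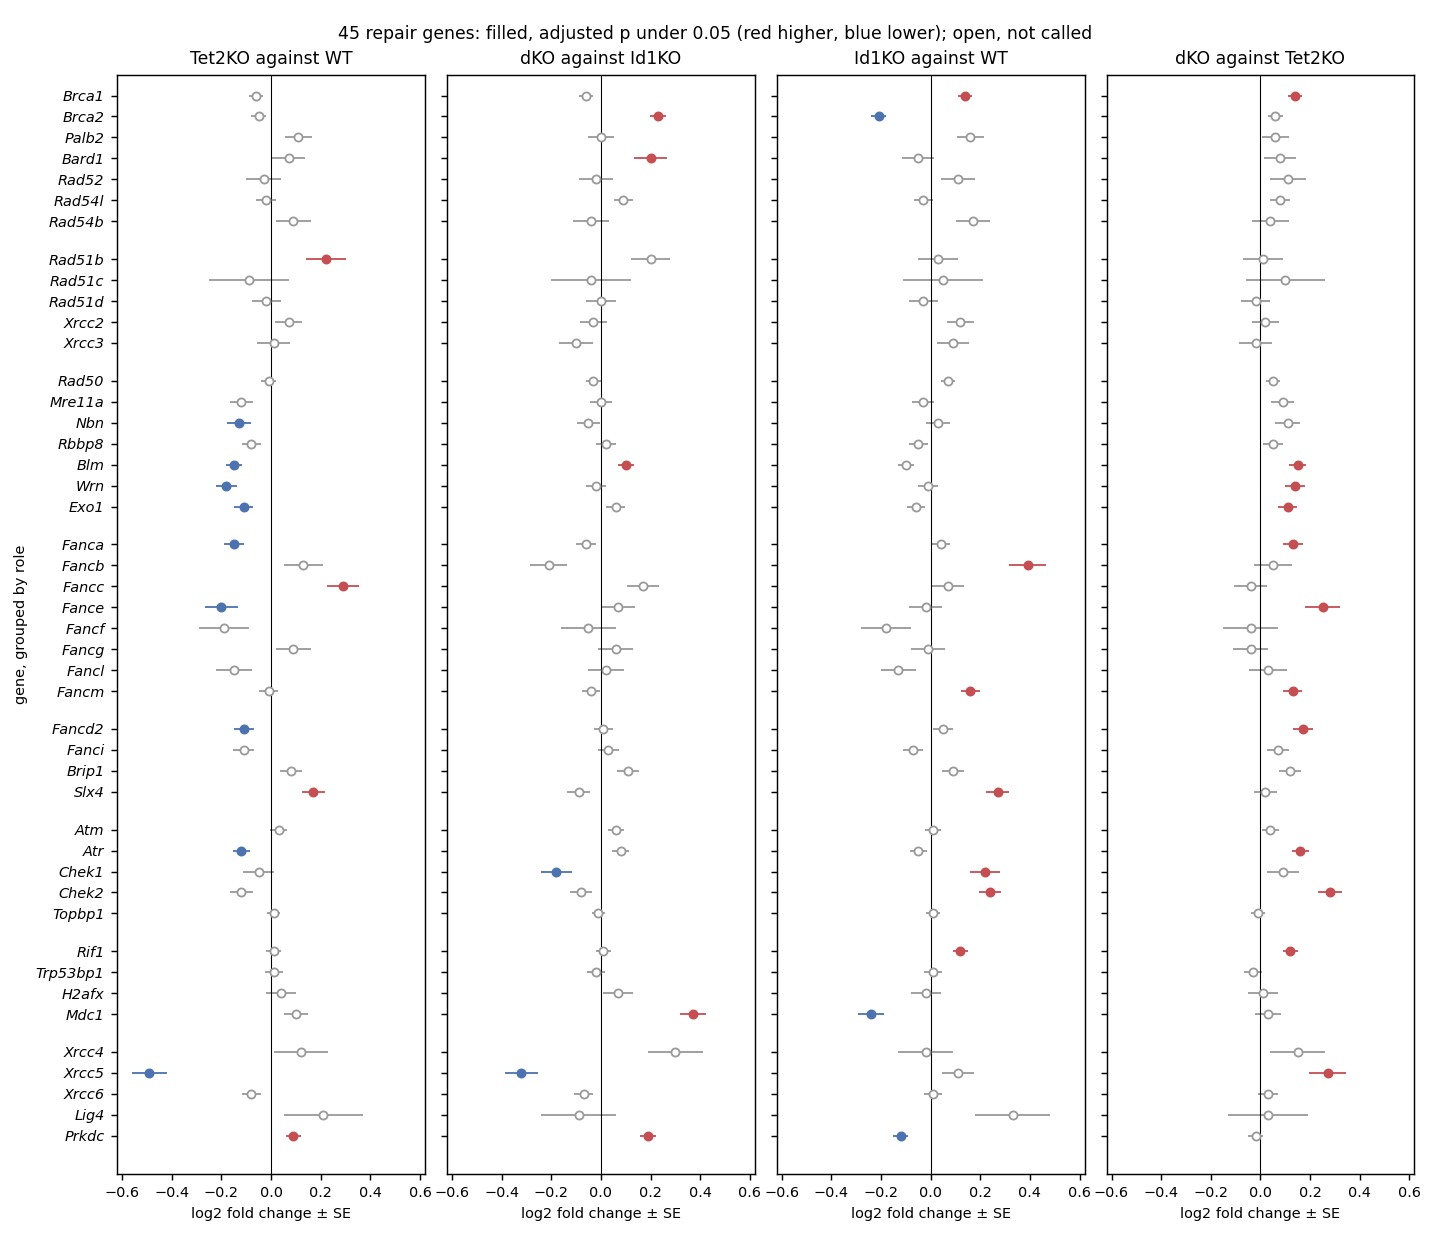
Log2 fold changes ± SE of the 45 repair genes in 4 contrasts, grouped from top to bottom into recombination mediators, the group from Rad51b to Xrcc3, end resection and helicases, Fanconi core complex, the D2-I pair and effectors, checkpoint kinases, break-site chromatin and end joining. Filled points passed an edgeR adjusted p under 0.05, and every filled point in dKO versus Tet2KO lies to the right of 0.

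The 8 genes of the Fanconi core complex did not move together. In Tet2KO versus WT Fanca and Fance were lower and Fancc higher. Fanca (ENSMUSG00000032815.16, chromosome 8, 123268300 to 123318576), the gene most often mutated in Fanconi anemia, stood at 71.7, 71.8 and 70.8 CPM (WT), 66.2, 61.2 and 66 (Tet2KO), 75, 73.6 and 72 (Id1KO) and 73.7, 70.4 and 68.2 (dKO). All Tet2KO libraries were below all others. The log2 fold change was -0.15 ± 0.039 in Tet2KO versus WT (adjusted p 0.00595) and 0.13 ± 0.04 in dKO versus Tet2KO (0.0165). Without Tet2KO replicate 2 the adjusted p were 0.0604 and 0.113, and the second call was also lost without dKO replicate 1. Zfp276 overlaps the exons of Fanca over 920 bp on the opposite strand. Fance, which bridges the core complex to FANCD2, was at 25.2, 25 and 23.5 CPM in WT, 22.5, 22.2 and 19.5 in Tet2KO and 25.2, 23.5 and 27.5 in dKO. The Tet2KO libraries were below both other groups. Its log2 fold changes were -0.2 ± 0.068 in Tet2KO versus WT (adjusted p 0.0289) and 0.25 ± 0.069 in dKO versus Tet2KO (0.0114). Without Tet2KO replicate 3 the adjusted p were 0.196 and 0.0863. The first call was also lost without WT replicate 1 or 2 and under DESeq2, the second without dKO replicate 3.

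Fancc, a core subunit (chromosome 13, 63285043 to 63497278), stood at 22.3, 23.4 and 22.4 CPM (WT), 30.3, 25.1 and 27.7 (Tet2KO), 23.2, 23.7 and 24.8 (Id1KO) and 28.8, 26.3 and 25.5 (dKO). Every library labelled Tet2KO or dKO was above every library labelled WT or Id1KO. Fancc rose by 0.29 ± 0.065 in Tet2KO versus WT (adjusted p 0.00203) and by 0.24 ± 0.066 in dKO versus WT (0.0129), the second lost without dKO replicate 1 (0.069). In dKO versus Id1KO the value was 0.17 with an adjusted p of 0.0817. Its exons overlap those of 2010111I01Rik, a gene with more counts, over 185 bp on the opposite strand. Fancb, an X-linked core gene (164980592 to 164997272), stood at 10.5, 11.2 and 11.4 CPM (WT), 11.9, 12 and 12.3 (Tet2KO), 13.6, 14.8 and 14.9 (Id1KO) and 12.6, 13.3 and 11.6 (dKO). The Id1KO libraries were the highest, and the log2 fold change against WT was 0.39 ± 0.075 (adjusted p 0.00128), the largest rise among the 45 genes. Xist, on the same chromosome, went from 262 ± 10 CPM in WT to 64.9 ± 4.3 in Id1KO, and its part in the Fancb value was not tested. The interaction of Fancb was -0.34 ± 0.11 (adjusted p 0.0401), lost in 9 of the 12 fits without 1 library, and up to 0.147 with DESeq2. Fancm, the gene of a translocase that anchors the complex to DNA, rose by 0.16 ± 0.038 in Id1KO versus WT (adjusted p 0.00556), which held in each fit without 1 library. Its rises of 0.12 in dKO versus WT (0.0308) and 0.13 in dKO versus Tet2KO (0.0197) were lost in 4 and 3 of those 12 fits, and under DESeq2 had adjusted p of 0.139 and 0.0854. Fancf, Fancg and Fancl were called in no contrast.

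Downstream of the core complex, Fancd2 and Fanci encode the pair that receives ubiquitin. Fancd2 (chromosome 6, 113531682 to 113597017) stood at 68.8, 70.5 and 68.2 CPM (WT), 66.3, 62.2 and 63.7 (Tet2KO), 70.3, 68.6 and 75.7 (Id1KO) and 70.6, 72.9 and 72.1 (dKO). The Tet2KO libraries were below all others. It rose by 0.17 ± 0.04 in dKO versus Tet2KO (adjusted p 0.00428), a call that no fit without 1 library lost. Its log2 fold change in Tet2KO versus WT was -0.11 (adjusted p 0.0368). This call was lost under DESeq2 and in 7 of the 12 fits without 1 library, up to 0.17 without Tet2KO replicate 2. Fanci was at 48.4, 49.9 and 49.3 CPM in WT and at 45.2, 44.3 and 47.2 in Tet2KO, a log2 fold change of -0.11 ± 0.042 that did not pass (adjusted p 0.0512). Fanci shares 921 bp of exon with Polg on the opposite strand.

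Slx4, the scaffold for the nucleases that unhook crosslinks (chromosome 16, 3979105 to 4003770), was lowest in WT. Its level per library was 45.8, 43.3 and 44.9 CPM (WT), 47.4, 51.3 and 51.9 (Tet2KO), 55.8, 50.8 and 55.1 (Id1KO) and 50.5, 51.8 and 50 (dKO). No library of the other labels overlapped WT. Slx4 rose against WT by 0.17 ± 0.047 in Tet2KO (adjusted p 0.00883), 0.27 ± 0.047 in Id1KO (0.000448) and 0.19 ± 0.048 in dKO (0.0088). The value for the double label lay between those for the single labels, with an interaction of -0.26 ± 0.067 (adjusted p 0.0132). These 3 contrasts share the WT libraries. Brip1, a helicase partner of BRCA1, rose by 0.2 ± 0.045 in dKO versus WT (adjusted p 0.00321), from 50.1, 51.8 and 54.1 to 58.4, 63.2 and 57.7 CPM.

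Among checkpoint genes, Chek2 moved with the Id1 label on both backgrounds. Chek2 (ENSMUSG00000029521.7, chromosome 5, 110839979 to 110874145) encodes the kinase that ATM activates after breaks. The 12 libraries gave 33.5, 34.7 and 32.2 CPM (WT), 30.7, 31.6 and 30.2 (Tet2KO), 39.5, 39.1 and 39.9 (Id1KO) and 37.4, 36.2 and 38.3 (dKO). The 6 libraries labelled Id1KO or dKO were above the 6 others. Chek2 rose by 0.24 ± 0.045 in Id1KO versus WT (adjusted p 0.00109) and by 0.28 ± 0.048 in dKO versus Tet2KO (0.000211), which share no library, and no fit without 1 library lost either. The interaction was 0.04 ± 0.066, with a 95% confidence interval of -0.1 to 0.17. With summed libraries the Id1 label gave 0.26 with an adjusted p of 0.419 and an unadjusted p of 0.00871. In dKO versus WT Chek2 rose by 0.16 (adjusted p 0.022), lost without WT replicate 3 or dKO replicate 3 and up to 0.109 with DESeq2.

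Chek1, the kinase gene downstream of ATR, stood at 46, 47.3 and 44.2 CPM (WT), 42.6, 46.2 and 44.3 (Tet2KO), 49.5, 50.5 and 60.3 (Id1KO) and 44.7, 48.8 and 47.7 (dKO). It rose by 0.22 ± 0.061 in Id1KO versus WT (adjusted p 0.0174), which was 0.13 (0.111) without Id1KO replicate 3 and was also lost without WT replicate 3. The change of -0.18 in dKO versus Id1KO (adjusted p 0.0435) became -0.09 (0.276) without Id1KO replicate 3. It was also lost without Tet2KO replicate 3, dKO replicate 1 or dKO replicate 3, under DESeq2 and with the libraries compared alone. Atr (chromosome 9, 95857597 to 95951781), the kinase that senses single-stranded DNA, stood at 137, 143 and 142 CPM (WT), 132, 130 and 127 (Tet2KO), 134, 133 and 142 (Id1KO) and 140, 152 and 142 (dKO). The Tet2KO libraries were the lowest of the 12. Its log2 fold change was -0.12 ± 0.034 in Tet2KO versus WT (adjusted p 0.00993) and 0.16 ± 0.035 in dKO versus Tet2KO (0.00188), with an interaction of 0.2 ± 0.048 (0.00706). The first was lost without WT replicate 2 or Tet2KO replicate 3 (0.0667). Atm, the kinase activated by the breaks themselves, was called in no contrast, with means of 122 ± 2.3, 125 ± 2.3, 123 ± 3.5 and 128 ± 5.3 CPM in WT, Tet2KO, Id1KO and dKO. Its log2 fold change in dKO versus Tet2KO was 0.04, with a 95% confidence interval of -0.03 to 0.11. Topbp1 was called in no contrast either, at 375 to 396 CPM over all libraries.

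Of the 4 genes whose products mark or bind the chromatin around breaks, Mdc1 and Rif1 were called. Mdc1 (chromosome 17, 35841515 to 35859670), which encodes the reader of phosphorylated H2AX, stood at 88.7, 73.5 and 77.2 CPM (WT), 84, 86 and 87.1 (Tet2KO), 67.4, 69.5 and 66.2 (Id1KO) and 86.3, 91.1 and 85 (dKO). The Id1KO libraries were the lowest of the 12, while the WT libraries were spread and overlapped Tet2KO and dKO. The log2 fold change was -0.24 ± 0.051 in Id1KO versus WT (adjusted p 0.00336), which became -0.15 (0.0215) without WT replicate 1. Mdc1 rose by 0.37 ± 0.052 in dKO versus Id1KO (2.86e-05), with an interaction of 0.27 ± 0.072 (0.017). Rif1, the gene of a factor that limits resection, rose by 0.12 ± 0.029 in Id1KO versus WT (adjusted p 0.00788), 0.12 ± 0.03 in dKO versus Tet2KO (0.00417) and 0.14 ± 0.03 in dKO versus WT (0.00275). Its level per library was 197, 203 and 197 CPM (WT), 204, 201 and 196 (Tet2KO), 216, 211 and 223 (Id1KO) and 212, 223 and 221 (dKO).

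H2afx (chromosome 9, 44334694 to 44336077) stood at 276, 264 and 316 CPM (WT), 294, 289 and 299 (Tet2KO), 285, 295 and 264 (Id1KO) and 264, 304 and 319 (dKO). The groups overlapped, and no contrast passed. In dKO versus Tet2KO the log2 fold change was 0.01, with a 95% confidence interval of -0.12 to 0.13. H2afx transcript does not report the phosphorylated histone, which these data do not measure. Trp53bp1, which steers breaks to end joining, was at 69.5 ± 1.1 CPM (WT), 70 ± 2.9 (Tet2KO), 69.8 ± 0.83 (Id1KO) and 68.8 ± 1.7 (dKO). Its log2 fold changes in the 5 pairwise contrasts lay between -0.03 and 0.01. Trp53bp1 shares 2130 bp of exon with Tubgcp4 on the opposite strand.

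Further genes of these routes were listed by role, beside the 45, and 77 of 79 were in the table and tested. In Tet2KO versus WT 4 of the 77 were higher and 16 lower, with a median of -0.06, so 26% were called beside 32.8% of all genes. In dKO versus Tet2KO 14 were higher and 5 lower, with a median of 0.05, so 24.7% were called beside 26.4% of all genes. Abraxas1, a scaffold of a BRCA1 complex, went from 19.9 ± 1.2 CPM in WT to 15.1 ± 0.15 in Tet2KO, a log2 fold change of -0.39 ± 0.069 (adjusted p 0.000177). Helq, a helicase gene, went from 22.1 ± 1.4 to 17.5 ± 1.3 CPM (-0.34, 0.00168). The highest of the genes called there were Dntt at 0.22 and Etaa1, an ATR activator, at 0.15. In dKO versus Tet2KO Polq, the polymerase of microhomology-mediated joining, rose from 61.5 ± 2.9 to 76 ± 2.3 CPM (0.31, adjusted p 1.4e-05), and Rpa3, a subunit of the single-strand binding protein, from 20.5 ± 0.36 to 25.4 ± 1.2 CPM (0.31, 0.000348). Polq also rose by 0.24 in Id1KO versus WT (adjusted p 0.000286). Dntt, the polymerase that adds bases at lymphocyte receptor joints, had the lowest value in dKO versus Tet2KO, from 35.1 ± 2.4 to 19.9 ± 1.4 CPM (-0.82, 3.58e-08), and Parp3 followed at -0.27. Dntt also belongs to the lymphoid marker list, of which 6 of 14 genes tested were lower and none higher in that contrast.

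Promoter sequence was examined because cycling cells transcribe many of these genes through E2F factors. RefSeq windows on GRCm38.p6, from 250 bases before to 50 bases after a transcript start, were at hand for 33 of the 45 genes, in 37 windows. They were searched on both strands for TTTCCCGC, TTTGGCGC, TTTCGCGC and TTTGCCGC, octamers that E2F factors can bind, and for CCAAT, the box of NF-Y. An E2F octamer was found in 9 of the 37 windows (24.3%), against 2.26% of 32851 windows of all genes, and belonged to Bard1, Brca2, Chek2, Fancg, Mdc1, Rad51c, Topbp1 and Xrcc6. CCAAT was found in 22 windows (59.5%), against 37.4% of all. TTTGAA, the core of the element named CHR, was found in 2 windows (5.41%), against 17.9%. A match is a string of letters and does not show binding. In Id1KO versus WT genes with an octamer differed in direction: Chek2 was higher, Brca2 and Mdc1 were lower, and the other 5 were not called. In dKO versus Id1KO those called, Bard1 (0.2), Brca2 (0.23) and Mdc1 (0.37), were all higher. Chek2 alone of them was called in dKO versus Tet2KO and in dKO versus WT, higher in both. The 250 bases before the start are shown, 5′ to 3′ on the strand of the gene. They are given for Chek2, Brca2 and Mdc1, and for Xrcc5, the gene with the largest decrease. E2F octamers and CCAAT boxes, in either orientation, are in capitals, and the 2 kinds do not overlap.
Chek2, chr5:110839733-110839982, plus strand: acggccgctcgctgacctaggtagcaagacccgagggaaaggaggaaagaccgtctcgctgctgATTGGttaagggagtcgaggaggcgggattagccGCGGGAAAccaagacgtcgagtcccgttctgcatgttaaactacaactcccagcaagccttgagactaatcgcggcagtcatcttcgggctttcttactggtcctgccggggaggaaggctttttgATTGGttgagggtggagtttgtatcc
Brca2, chr5:150522371-150522620, plus strand: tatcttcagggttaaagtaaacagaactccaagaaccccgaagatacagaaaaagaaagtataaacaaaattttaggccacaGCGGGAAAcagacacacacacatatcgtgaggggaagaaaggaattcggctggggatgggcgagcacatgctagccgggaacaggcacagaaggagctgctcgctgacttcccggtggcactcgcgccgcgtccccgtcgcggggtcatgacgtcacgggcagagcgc
Mdc1, chr17:35841248-35841497, plus strand: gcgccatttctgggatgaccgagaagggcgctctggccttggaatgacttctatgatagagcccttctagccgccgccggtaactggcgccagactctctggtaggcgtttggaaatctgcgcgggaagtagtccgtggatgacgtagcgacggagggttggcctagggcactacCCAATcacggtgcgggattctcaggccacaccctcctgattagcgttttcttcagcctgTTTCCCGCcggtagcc
Xrcc5, chr1:72307171-72307420, plus strand: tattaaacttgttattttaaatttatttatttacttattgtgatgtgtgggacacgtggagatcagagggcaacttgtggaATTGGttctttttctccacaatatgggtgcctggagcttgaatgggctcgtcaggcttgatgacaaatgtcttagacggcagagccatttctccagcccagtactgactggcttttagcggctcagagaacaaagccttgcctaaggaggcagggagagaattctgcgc
Chek2 and Brca2 hold the same octamer on the reverse strand, with its first base at -152 and -168 from the start, and Mdc1 holds it on the forward strand at -16. Xrcc5 has 1 CCAAT box and no octamer in this stretch.

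**Figure D5:**
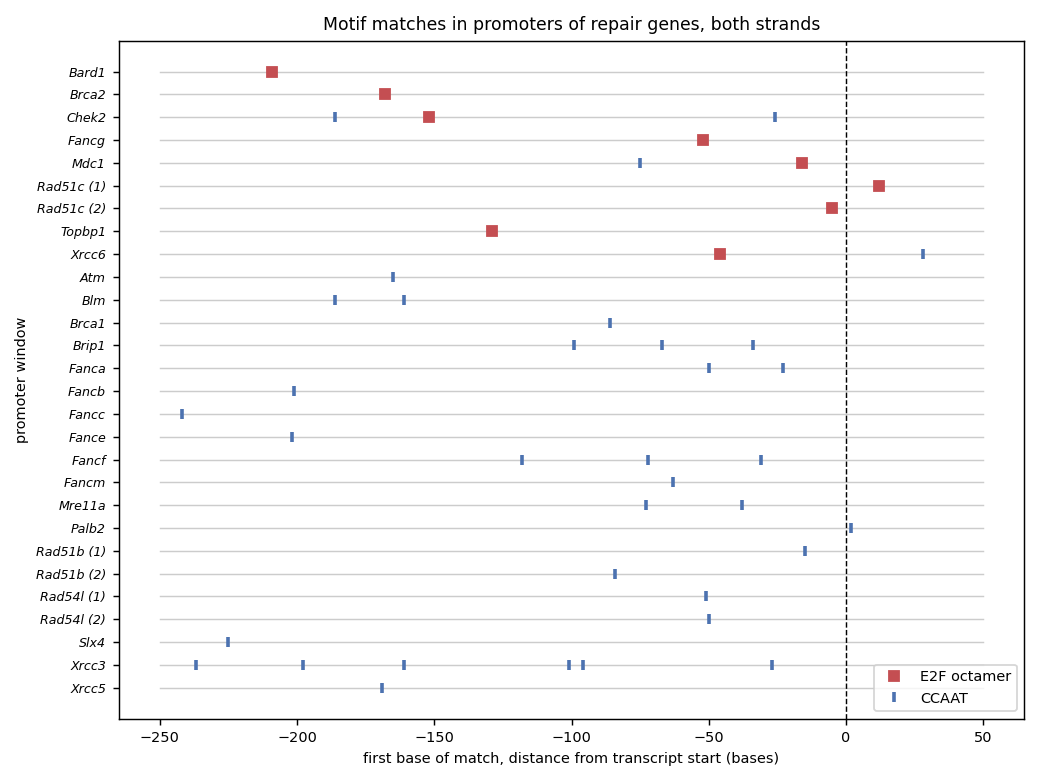
Positions of E2F octamers (red squares) and CCAAT boxes (blue bars) in the promoter windows of repair genes with a match, as distance in bases of the first matching base from the transcript start (dashed line). The 9 windows with an octamer are at the top, and genes with 2 windows are numbered.

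Genes whose levels ran most alike over the 12 libraries were sought among 10335 genes with a mean of at least 5 CPM, by Pearson correlation of log2 CPM. The 12 libraries form 4 groups, so the values describe shared group means. For Brca1 the closest were Chordc1 (0.986), Bub1 (0.977), a spindle checkpoint kinase gene, and Tfrc (0.977), the transferrin receptor gene of the erythroid list. For Fanca they were Pip4k2c (0.943), Wdr60 (0.94) and Klhdc8b (0.923). For Atm they were G3bp2 (0.888), Atrx (0.885) and Sbno1 (0.865).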

How the data were processed

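RNA of sorted donor cells (Qiagen RNeasy Micro) was made into stranded, ribosomal RNA-depleted Illumina libraries, per the labels' protocols. The deposited values are estimated counts per gene, not normalized, with 5.06% of values not whole. STAR, RSEM and mm10 are named in the submitters' processing notes; versions, annotation and strand setting are not given in the sources used here. All 55450 identifiers matched GENCODE M21 (GRCm38), which gave positions and exon lengths. Shared stretches of at least 100 bp at 95% identity were sought with blast 2.17.0. The longest in a gene that does not overlap a repair gene was 203 bp (H2afx). Brca2 (450), Chek2 (414), Rad51c (213) and Exo1 (137) shared such stretches with the most other genes. The part of shared stretches in the counts was not tested.

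Rounding the estimated counts to whole numbers preceded filterByExpr (minimum count 10) and TMM scaling. A single model of the 12 libraries, with a mean for each genotype, was tested by quasi-likelihood in edgeR (edgeR 4.0.16, R 4.3.3), two-sided, adjusted by Benjamini-Hochberg over 14346 genes at 0.05. CPM use TMM-scaled totals, and the confidence level is 95%. The exact permutation test of 3 against 3 libraries cannot go below 0.1 and was not used. Library pairs of a genotype differed by 1.18 to 2.1 times sampling noise (54 pairs between genotypes by 2.89 to 5.95 times), so libraries were kept apart. These ratios do not show whether the 3 libraries of a genotype came from separate cell samples. The common coefficient of variation that edgeR estimated between libraries of a genotype was 0.031. Title suffixes were read as replicate numbers. Deviations from genotype means correlated by -0.098 to 0.114 (median 0.026) for same-numbered libraries and by -0.104 to 0.174 (median -0.0145) for others. These overlapping ranges cannot exclude a weak pairing by number, and the main model used none.

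Named genes were, in each contrast, the 3 highest and 3 lowest among those called, and 15 genes fixed by role; of the further genes, the 2 highest and 2 lowest called in Tet2KO against WT and dKO against Tet2KO. Others are named by their group's counts. Members, lists and tests were chosen with earlier results of these data known. Alternatives were DESeq2 1.42.0, scaling by RLE or upper quartile, scaling that omits mitochondrial genes and small structural RNAs, omitting the filter, requiring 10 counts in all libraries of some genotype, fits restricted to the compared libraries, a replicate block, omission of each library, glmTreat at 1.2-fold, a threshold of 0.01, and summed libraries with additive effects (1 residual degree of freedom). For single genes, counts of alternative fits leave out the last 3. Steps were tested on simulated libraries, drawn independently with the common dispersion of these data. That setting does not cover libraries that are repeats of 1 cell sample.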

Additional observations from a re-analysis of the deposited data

Results flagged for a closer look

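For 7 of the 45 genes the change from Tet2KO to dKO differed from the change from WT to Id1KO, by the interaction test in edgeR at an adjusted p under 0.05. The log2 difference was 0.28 for Brca2, 0.24 for Blm, 0.17 for Exo1, 0.2 for Atr and 0.27 for Mdc1, and -0.34 for Fancb and -0.26 for Slx4. That is 15.6% of the 45 genes beside 14.5% of all genes tested. The values for Exo1 (adjusted p 0.0399) and Fancb (0.0401) were lost in 10 and 9 of 12 fits, each with 1 library omitted. DESeq2 lost both values too. No fit without 1 library lost those of the other 5 genes.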

How the results depend on the processing

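Leaving out 1 library gave 7 to 14 genes called of 45 in Tet2KO versus WT, 9 to 12 in Id1KO versus WT, 5 to 10 in dKO versus WT, 8 to 12 in dKO versus Tet2KO, 5 to 7 in dKO versus Id1KO and 5 to 7 for the interaction. All calls in dKO versus Tet2KO were higher in each of these fits. DESeq2 called 7 genes in Tet2KO versus WT and 4 in dKO versus WT. The libraries compared alone gave 5 in dKO versus WT and 4 in dKO versus Id1KO. At a threshold of 0.01 there were 7 in Tet2KO versus WT, 3 in dKO versus WT, 7 in dKO versus Tet2KO, 4 in dKO versus Id1KO and 3 for the interaction. Against a 1.2-fold change there was 1 in Tet2KO versus WT and 0 in the other 5 contrasts, where the unadjusted p of that test was under 0.05 for 0 or 1 gene. Summed libraries gave 0 in the 4 contrasts they cover, with 4 genes for each label at an unadjusted p under 0.05. Beside them stood 15.6% (Tet2 label) and 9.96% (Id1 label) of all genes. The replicate block gave 14, 10, 7, 13, 7 and 7 calls in the order of the contrasts above, and whether the numbers pair libraries is not settled. Of the directions called for named genes, that of Blm in dKO versus Id1KO reversed, from 0.1 to -0.02 with summed libraries, which fit additive effects only, and no other did. Lig4, Rad51c and Xrcc4, with 48 to 131 counts per library, had standard errors of 0.11 to 0.16 in the pairwise contrasts. Values well above these were not called by edgeR. Examples were 0.33 for Lig4 in Id1KO versus WT (adjusted p 0.162) and 0.3 for Xrcc4 in dKO versus Id1KO (0.0551). For these genes a missing call does not exclude a change of such a size.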
